A study of Mus musculus with 8 samples.

Results

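The nuclear genes of the oxidative phosphorylation system were followed through 8 libraries of ribosome-protected fragments from mouse brain at postnatal day 5. A gene was included when the symbol of a protein-coding transcript named an Nduf, Sdh, Uqcr, Cyc1, Cycs, Cox4 to Cox8 or Atp5 gene, and each gene was represented by its transcript with the most reads after scaling for library size. The rule found 86 of the 21874 protein-coding genes in the table: 35 of complex I, 4 of complex II, 9 of complex III, cytochrome c (Cycs), 20 of complex IV, 15 of complex V, and 2 genes (Atp5s and Atp5sl) whose symbols match but whose products are not subunits of the ATP synthase. Ndufa4 and its paralogue Ndufa4l2 were counted with complex IV. In all, 84 of the 86 genes held a read, and Cox7b2 and Cox8c held none.

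The FVB mice carried the Taiwanese model of SMA (spinal muscular atrophy), in which the human SMN2 transgene supplies a little survival motor neuron protein (SMN). The 3 SMN immunoprecipitates (SMN IP) and the 1 IgG immunoprecipitate (IgG IP), the control for unspecific binding, came from phenotypically normal Smn+/-; SMN2tg/0 brains. The 2 RiboLace libraries, a capture of active ribosomes, and the 2 polysome libraries, from pooled sucrose gradient fractions, came from early symptomatic Smn-/-; SMN2tg/0 brains. All 8 libraries thus carry SMN2 and at least 1 disrupted Smn allele, and RiboLace or polysome libraries of unaffected mice were not analysed here. For the IP libraries, the lysates had been cleared of nuclei and mitochondria and the ribosomes digested with RNase I before the antibody was added. By their labels the replicates are biological, without a word on whether 1 brain or several lie behind each.

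Reads on coding genes, 1 transcript a gene, numbered 138239, 133295 and 237760 in SMN IP replicates 1 to 3, 206690 in IgG, 47846 and 39375 in RiboLace, and 1661834 and 2295393 in polysomes. A gene with no read could still hold up to 3 counts, which is 62.7 and 76.2 counts per 1000000 coding reads (CPM) in the RiboLace libraries and 1.81 and 1.31 CPM in the polysome libraries, for counting error only. SMN IP replicate 2 stood apart from its group. Its counts differed from those of replicates 1 and 3 by a chi-square of 3.18 and 3.25 per gene, whereas replicates 1 and 3 differed from each other by 1.34 and replicate 3 from IgG by 1.26. Rows of Smn1, the targeted gene, held 53, 27 and 75 reads in SMN IP, 16 in IgG, 8 and 3 in RiboLace and 142 and 201 in polysomes. Those raw counts come from libraries of unlike depth. Over all transcripts SMN IP held 403554, 304615 and 703704 reads and IgG 632823. RiboLace held 122993 and 105720, and polysomes 3546905 and 4936856. The table has no row for human SMN2, so the Smn1 counts do not check the genotype labels. Markers of neurons, glia, cycling cells, blood and muscle were all read, and no marker was at 0 over the 8 libraries. In such bulk lysates fewer cells of a type and less RNA per cell cannot be told apart, and a footprint level carries both the amount of a message and the ribosomes on it.

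Oxidative phosphorylation passes electrons from NADH through complex I, or from succinate through complex II, to ubiquinone, then through complex III, cytochrome c and complex IV to oxygen. The protons pumped on the way drive the ATP synthase, complex V. Most subunits are translated in the cytosol from nuclear genes and imported, while a small set of core subunits is made inside the organelle from mitochondrial DNA. Neurons draw most of their ATP from this chain, and the immature brain expands it as it matures.

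The promoters give a view of the members that the symbol rule did not use. Promoters of respiratory genes are known for sites of the factors NRF1, GABP and YY1, and RefSeq promoter windows (GRCm38.p6, 250 bases before to 50 after a start) were available for 76 starts of 70 member genes. The NRF1 motif GCGCANGCG, on either strand, was present in 22 of the 76 windows (28.9%), against 6.25% of 32851 windows of all genes. The GABP motif CCGGAAG was present in 16 member windows (21.1%) against 8.86% of all windows, and the YY1 motif AAGATGGC in 12 (15.8%) against 2.75%. The member windows were also richer in G and C (median 57.5% against 52.7% for all windows), and a match is a string of letters, not a measured site. Most member windows lacked each motif, and no test of these shares was made. The following stretches, 1 for each of 5 members from complexes II, IV and V and cytochrome c, show the motif in capitals with its flanks in lower case, 5′ to 3′ on the gene's own strand, which is the minus strand in each case.
Sdhd, NRF1, chr9:50603910-50603938: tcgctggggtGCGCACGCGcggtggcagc
Cycs, NRF1, chr6:50566612-50566640: catgctagctCGCATGCGCgcgcacaaac
Cox6a1, NRF1, chr5:115349102-115349130: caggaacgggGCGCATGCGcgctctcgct
Cox6b1, GABP on the opposite strand, chr7:30626126-30626152: cctctcgcagCTTCCGGccagtcggaa
Atp5c1, NRF1, chr2:10080433-10080459: ctgagctcccGCGCACGCGcactgagt
The Cycs match lies on the opposite strand as well. The motif begins 79 bases upstream of the start in Sdhd, 61 in Cycs, 162 in Cox6a1, 28 in Cox6b1 and 17 in Atp5c1.

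Members had a high footprint density in polysomes, a value that carries both the amount of a message and the ribosomes on it. Footprint density, in reads per kilobase of coding length per 1000000 coding reads, had a median of 301.7 over the 84 members with a polysome read, against 14.3 over the 17006 coding genes with a polysome read. The members are also short, with a median coding length of 412.5 bases over all 86, against 1308 for those coding genes. Small subunits of complex IV led the order. Cox8a, a transmembrane subunit, had 723, 1715 and 801 in SMN IP, 737 in IgG, 3085 and 2177 in RiboLace and 1473 and 1444 in polysomes. Ndufa4, which sits on complex IV, had 697, 1175 and 608 in SMN IP, 563 in IgG, 1511 and 1938 in RiboLace and 1392 and 1223 in polysomes. Cox8a lay above Ndufa4 in both polysome libraries and both RiboLace libraries. Cox6b1, which faces the intermembrane space, followed with 1252 and 1175 in polysomes, then Cox7a2 with 1048 and 965 and Cox6a1 with 959 and 896. Ndufa4 lay above Cox6b1 within each polysome library, although the ranges of both genes over the pair overlapped.

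In the other complexes the densest members in polysomes were likewise small. For complex I they were Ndufa1, with 783 and 714, and Ndufc2, with 665 and 588, both accessory membrane subunits. For complex III they were Uqcrq, with 662 and 716, and Uqcr10, with 574 and 552. For complex V they were Atp5g3, a gene of the membrane ring subunit c, with 829 and 772, and Atp5e, the epsilon subunit, with 806 and 781. The catalytic subunits of the ATP synthase head were also dense for their length, Atp5b with 553 and 539 and Atp5a1 with 489.9 and 482. Low in the order stood the long complex I subunits Ndufs1, with 48.2 and 58.8, and Ndufv1, with 67.3 and 67.5, which carry iron-sulfur clusters and, in Ndufv1, the NADH site. Complex medians ran from 259.6 in complex I over 322 in complex II, 362 over all 20 genes of complex IV and 405 in complex V to 416 in complex III, with Cycs at 286. Since the counts cover whole transcripts and density divides by the coding length alone, short messages with reads outside the coding part come out higher.

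**Figure D1:**
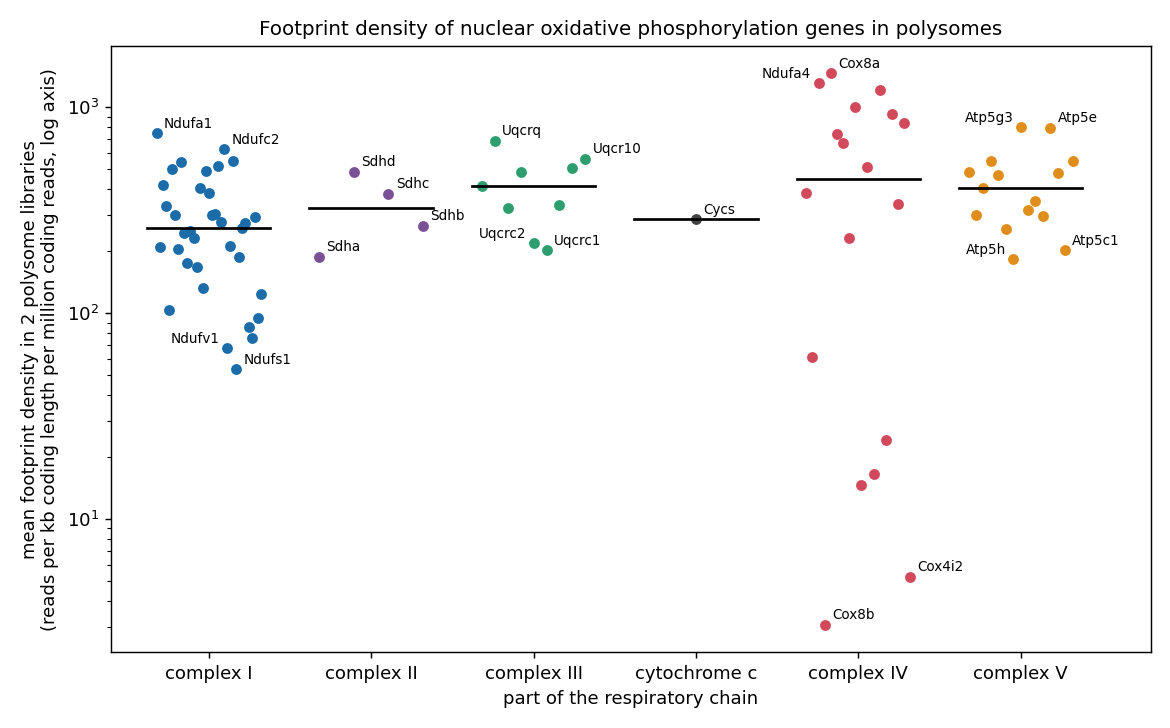
Mean footprint density in the 2 polysome libraries for each member with a polysome read, by complex, on a log axis in reads per kilobase of coding length per 1000000 coding reads. Points are genes and bars are medians over the genes drawn. Complex IV spans the widest range, with Cox8a at 1458 and Cox8b at 3.07, and Cox7b2 and Cox8c, without a read, are not drawn.

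Complex IV has tissue isoforms, and the brain libraries held the ubiquitous ones. Of the summed density of the pair Cox4i1 and Cox4i2, Cox4i1 took 99.4% in SMN IP and 98.7% in polysomes, and Cox4i2, known from lung and from low oxygen, had no read in IgG or RiboLace. Cox6a1 took 97.5% of its pair in polysomes, where the heart and muscle form Cox6a2 had 28 reads. Cox6b1 took 98.7% in SMN IP and 98.6% in polysomes, against the testis form Cox6b2. Cox8a took 99.8% in polysomes, with 3 reads on the muscle form Cox8b and none on the testis form Cox8c. Cox7b held all reads on the coding transcripts of its pair, and a pseudogene row of Cox7b2 had 1 read in each polysome library. Cox7a1, the heart and muscle form, had 14 polysome reads and none in SMN IP, IgG or RiboLace. A count of 0 in the pooled RiboLace libraries still allows up to 34.4 CPM, so such isoforms were not detectable at that depth.

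The set of Cox7a2, Cox7a1 and Cox7a2l and the set of subunit c genes were shared more evenly. Cox7a2l, which joins complexes III and IV into supercomplexes, took 6.53% of the Cox7a set in SMN IP, 25.7% in IgG, 19.9% in RiboLace and 18.5% in polysomes, from 12, 12, 11 and 308 reads. The 3 genes for subunit c make the same mature protein. Atp5g3 took 56.3% of their density in RiboLace and 54.5% in polysomes, Atp5g1 18.8% and 24.0%, and Atp5g2 24.9% and 21.6%. In SMN IP, Atp5g3 took 45.5%. Ndufa4 took 98.1% in SMN IP and 95.5% in polysomes, against Ndufa4l2, which had 65 polysome reads and none in RiboLace. No source used here gives the counting rule for reads that match several transcripts, so splits between close paralogues are uncertain.

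Members together took 1.34% ± 0.0971 (SD, n = 3) of the coding reads in SMN IP, 1.18% in IgG (exact 95% interval 1.13 to 1.23, counting error only), then 1.69% ± 0.123 (SD, n = 2) in the RiboLace pair and 1.43% ± 0.0349 (SD, n = 2) in the polysome pair. The excess of RiboLace lay in complexes V and IV. Complex V took 0.598% and 0.541% in RiboLace against 0.381% and 0.367% in polysomes, and complex IV took 0.389% and 0.361% against 0.282% and 0.267%. Neither pair of ranges overlapped. Without Atp5a1 and Atp5b, the 13 remaining genes of complex V took 0.297% ± 0.0209 in RiboLace and 0.214% ± 0.00759 in polysomes (SD, n = 2 each). Complex I, at 0.489% and 0.447% in RiboLace and 0.481% and 0.462% in polysomes, overlapped, and complex II was lower in RiboLace, at 0.0836% and 0.0838%, than in polysomes, at 0.104% and 0.102%. In SMN IP, complex IV took 0.184%, 0.301% and 0.204%, against 0.178% in IgG, and replicate 2 was the highest. No p is given for these sums.

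**Figure D2:**
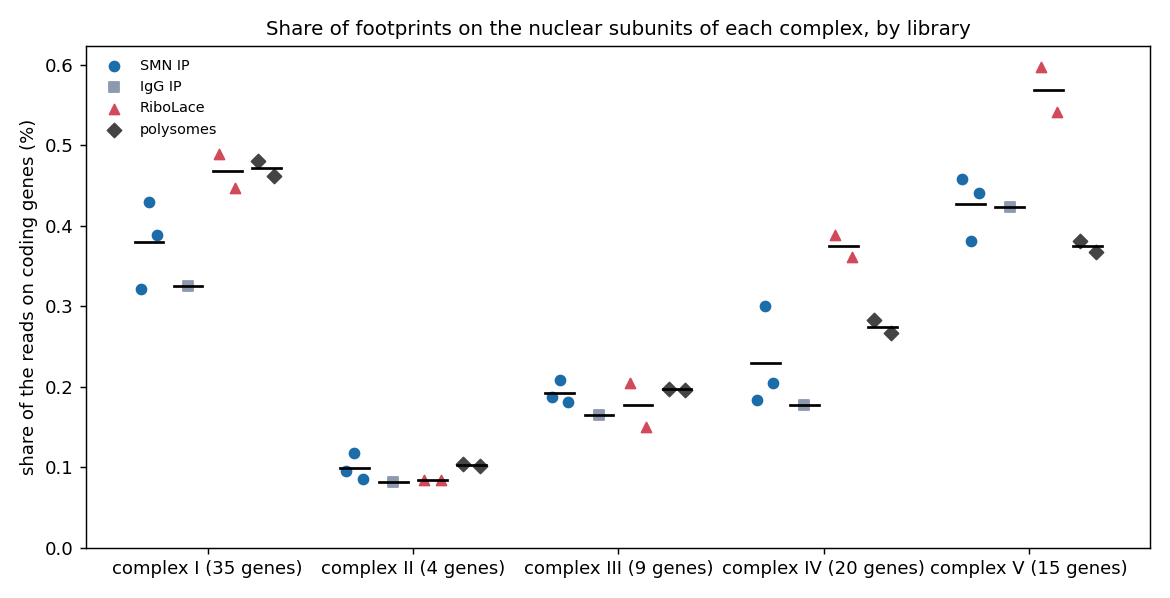
Share of the coding reads, in percent, on the nuclear genes of each complex in SMN IP (3 libraries), IgG IP (1), RiboLace (2) and polysomes (2). Points are libraries and bars are group means. Complexes V and IV lie higher in both RiboLace libraries than in both polysome libraries, and the ranges of complexes I and III overlap.

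SMN IP set against IgG IP addresses the messages on SMN-bound ribosomes. No member was called, in either direction. Of 76 members tested, 54 (71.1%) had a positive log2 fold change, with a median of 0.24, against 52.7% and a median of 0.032 over all 5517 genes tested. Across all genes 0% were called higher and 0.0181% lower (adjusted p under 0.05 in the edgeR quasi-likelihood fit), and no member had an unadjusted p under 0.05. DESeq2 called no member either. With 1 IgG library this fit called next to nothing among all genes, so a count of 0 does not show that members were alike in SMN IP and IgG. The 10 members not tested were Atp5s, Atp5sl, Ndufa4l2 and 7 isoform genes of complex IV.

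The members with the largest fold changes were single subunits of several complexes. Sdhd, a membrane anchor of complex II, had 218, 398 and 144 CPM in SMN IP against 127 CPM in IgG (edgeR log2 fold change 0.96 with SE 0.56, adjusted p = 0.999). All 3 SMN libraries lay above IgG, replicate 2 was the highest, and without it the log2 fold change was 0.45 (SE 0.42). Cox7a2, second to Sdhd by unadjusted p, had 126, 449.9 and 245 CPM against 143 CPM, with replicate 1 below IgG. Ndufb5 had 109, 43.3 and 52.8 CPM against 27.5 CPM, and Ndufc2 83.7, 121 and 76.8 CPM against 44.0 CPM. Both are accessory subunits of complex I, and for both every SMN library lay above IgG. Cox7a2l lay below IgG in each SMN library, at 16.7, 26.0 and 33.6 CPM against 66.0 CPM (log2 fold change -1.30 with SE 1.21). Uqcr10 did as well, at 33.5, 51.9 and 52.8 CPM against 93.5 CPM, and Atp5j, a stalk subunit of the ATP synthase, at 58.6, 60.6 and 91.2 CPM against 116 CPM. None of these passed the test. Among abundant subunits the difference was near 0 for some, though its error stayed wide: Atp5a1 differed by -0.0040 (SE 0.46) and Uqcrc1 by 0.0055 (SE 0.46). For others it was not, with 0.54 (SE 0.49) for Cox6a1 and 0.54 (SE 0.53) for Cox8a.

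Complex medians were 0.27 for complex I, 0.27 for complex II, 0.31 for complex III, 0.53 for complex IV and 0.016 for complex V, and all 4 genes of complex II were positive. Without SMN IP replicate 2 the median over the members was 0.18, and the complex medians were 0.19, 0.17, 0.068, 0.15 and 0.16 for complexes I to V, so that the height of complex IV came with that library. No member was called then either. The value also moved with how many transcripts the table lists for a gene. The 20 tested members with 1 listed transcript had a median of 0.55 against IgG and the 15 with more than 6 had 0.014, and over all genes the medians of these classes were 0.28 and -0.17. The part of transcript number in the members' median was not tested.

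RiboLace and polysomes, both from Smn-/-; SMN2tg/0 brains, compare ribosomes captured as active with ribosomes of the pooled polysome fractions. In RiboLace 3 members rose and none fell: the ATP synthase subunits Atp5a1 and Atp5b and the complex IV subunit Cox8a. That is 3 of 79 members tested (3.80%), against 1.31% called higher and 0.925% called lower of all 10807 genes tested. Atp5a1 (ENSMUSG00000025428), the alpha subunit of the catalytic head, had 1384 and 1346 CPM in RiboLace against 776 and 751 CPM in polysomes (edgeR log2 fold change 0.84 with SE 0.18, adjusted p = 0.000671). Atp5b (ENSMUSG00000025393), the beta subunit that carries the catalytic site, had 1579 and 1196 CPM against 920.2 and 883 CPM (edgeR log2 fold change 0.64 with SE 0.18, adjusted p = 0.0308). Cox8a had 670.5 and 449 CPM against 324 and 312 CPM (edgeR log2 fold change 0.84 with SE 0.24, adjusted p = 0.0352). In all 3 genes both RiboLace libraries lay above both polysome libraries.

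The remaining members spread by complex. Over the members tested, 44 of 79 (55.7%) were positive with a median of 0.12, against 36.8% and -0.29 over all genes. In the same classes of coding length, from short to long, the members' medians were 0.14, 0.18, -0.25 and -0.012. Those of all genes were -0.065, -0.057, -0.30 and -0.33. In complex V 13 of 15 genes were positive (median 0.44), and in complex IV 10 of 13 (median 0.51). Complex I divided, with 16 of 35 positive (median -0.055), complex III had 3 of 9 (median -0.21), and complex II had none of 4 (median -0.29). Atp5l, a membrane subunit of the ATP synthase, had 324 and 174 CPM against 144 and 119 CPM, and Cox6a1 541 and 573 CPM against 340.3 and 313 CPM. Both were higher in each RiboLace library and neither passed, at adjusted p = 0.116 and 0.0657 by edgeR. Of the subunit c genes, Atp5g2 had 303 and 199 CPM in RiboLace against 148 and 143 CPM in polysomes (log2 fold change 0.81 with SE 0.34). Atp5g3 had 519 and 573 CPM against 370.0 and 339 CPM, and Atp5g1 151 and 199 CPM against 156 and 144 CPM. The groups overlapped for Atp5g1 alone of the 3, and none passed. The 2 genes of complex V below 0 were Atp5h (-0.19) and Atp5e (-0.17), and in complex IV Cox5a (-0.18) and Cox6b1 (-0.069) lay below 0. Cox4i1 had 259.5 and 349 CPM against 204 and 204 CPM, and Cox7a2 497 and 249 CPM against 277 and 250.3 CPM. Uqcr11, a small subunit of complex III, had 173 and 149.6 CPM against 88.9 and 91.9 CPM.

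On the low side, the core complex I subunit Ndufs3 had 43.3 and 24.9 CPM in RiboLace against 112 and 91.0 CPM in polysomes. Ndufa9, at the joint of the matrix arm of complex I, had 173 and 125 CPM against 310.1 and 270.4 CPM. Ndufv3 had 64.9 and 49.9 CPM against 97.7 and 123 CPM. All 3 were lower in each RiboLace library, none passed, and the Ndufs3 values rest on fewer than 3 reads in each RiboLace library. Ndufa4l2 passed the filter through its polysome reads alone and has no measured ratio. For complex II, Sdha, which binds FAD and succinate, had 433 and 249 CPM against 403 and 375 CPM, Sdhb, the iron-sulfur subunit, 64.9 and 299 CPM against 246 and 222 CPM, Sdhc, a membrane anchor, 195 and 199 CPM against 199.8 and 202 CPM, and Sdhd 173 and 74.8 CPM against 239 and 246 CPM. Both RiboLace libraries lay below both polysome libraries for Sdhd and, by a margin smaller than the spread, for Sdhc, and Sdhd did not pass (adjusted p = 0.223 by edgeR).

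**Figure D3:**
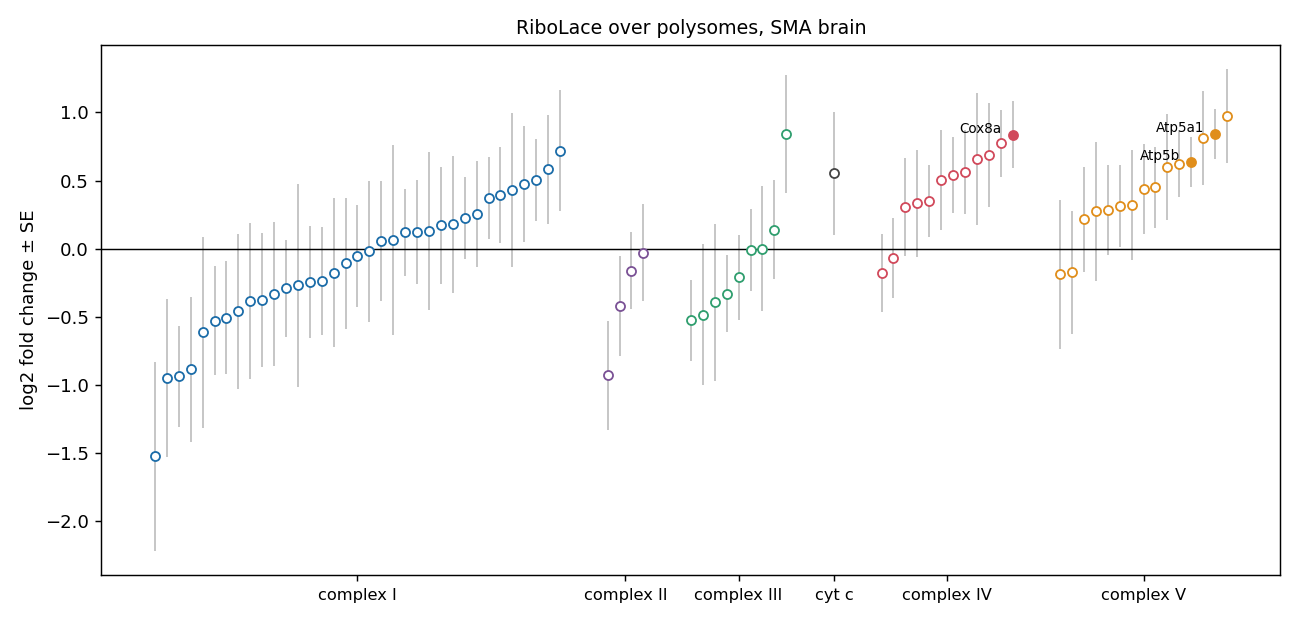
Log2 fold change of RiboLace over polysomes with its standard error for the members tested, ordered within each complex, filled where called. Ndufa4l2, with no RiboLace read, and the 2 genes that are not subunits are not drawn. Most genes of complexes IV and V lie above 0 and all 4 of complex II below it.

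These calls rest on few reads. Without either RiboLace replicate no member was called, without polysome replicate 1 the number was 5 of 37 tested (8.04% of all genes), and with 8 libraries in 1 fit it was 0, where the lone sample of a reduced group is assumed to vary like the rest. With genes under 50 counts left out it was 7 of 74 (5.24% of all genes), and with no filter it was 1, Atp5a1. RiboLace libraries also held more blood footprints: 5 markers summed to 5267 and 6375 CPM in RiboLace against 1910 and 2589 CPM in polysomes, and 4 of the 5 were called higher. Striated muscle markers summed to 334 and 330.2 CPM against 146 and 133 CPM, and neuron markers to 9614 and 8863 CPM against 5238 and 4824 CPM. Only 2 of the 5 muscle markers were tested, and 1, Acta1, was called higher. Of the 6 neuron markers 5 were positive, with a median log2 fold change of 0.45, and 2, Tubb3 and Stmn2, were called higher. The part of these cells in the members' values was not tested.

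SMN IP set against polysomes crosses genotype and protocol, so the effects of both cannot be told apart, and it gave the most calls. In SMN IP 9 members rose and 7 fell, of 76 tested. Among those that rose were Ndufv1, Ndufs1 and Ndufa10 of complex I, Uqcrc1 of complex III, Cox6c of complex IV, and Atp5a1, Atp5b and Atp5c1 of complex V, and 6 of the 9 have coding parts over 1200 bases. Those that fell, all with coding parts of up to 600 bases, were Ndufc2 and Ndufb3 of complex I, Uqcr10 and Uqcrq of complex III, Cox7a2l and Cox7b of complex IV, and Atp5g3 of complex V. As shares, 11.8% of the members were called higher and 9.21% lower, against 16.4% and 11.1% of all 6484 genes. The lower share was close to that of all genes, and it lay above it without SMN IP replicate 2, as given below. Within the length classes that held the lower calls, also given below, members were called lower less often than all genes with all replicates. The members' median was -0.043, against -0.015 over all genes. With library totals in place of TMM factors the 76 members split into 5 higher and 17 lower, where 9.81% and 24.3% of all genes were called. The median of all genes was then -0.31.

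Ndufv1 (ENSMUSG00000037916), which binds NADH and FMN, had 240.2, 187 and 281 CPM in SMN IP against 92.5 and 92.5 CPM in polysomes (edgeR log2 fold change 1.40 with SE 0.22, adjusted p = 0.000508). Ndufs1, the largest iron-sulfur subunit of complex I, held the same number of reads as Ndufv1 in each SMN library, against 106 and 129 CPM in polysomes (log2 fold change 1.05). For both of these subunits of the electron path every SMN library lay above both polysome libraries. Ndufa10, an accessory subunit, had 214, 116 and 221 CPM against 107 and 116 CPM, and its replicate 2 fell within the polysome range. Uqcrc1, a core protein of complex III, had 881, 642 and 718 CPM against 291 and 296 CPM (edgeR log2 fold change 1.35 with SE 0.25, adjusted p = 0.00165). It was the one member also called with replicate number as a block.

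In the ATP synthase head, Atp5b had 2198, 1596 and 1566 CPM in SMN IP against 883 and 858 CPM in polysomes (log2 fold change 1.03 with SE 0.25). Atp5a1 had 1415, 1150.0 and 1295 CPM against 744 and 730.1 CPM (log2 fold change 0.80). Atp5c1, the gamma subunit that turns inside the head, had 374, 241 and 351 CPM against 182 and 182 CPM (log2 fold change 0.84). The groups did not overlap for any of these, nor for Cox6c, with 133, 232 and 221 CPM against 120.3 and 116 CPM.

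Of the genes that fell, Cox7a2l had 17.8, 26.7 and 35.1 CPM in SMN IP against 79.8 and 76.8 CPM in polysomes (edgeR log2 fold change -1.46 with SE 0.38, adjusted p = 0.0118). Ndufc2 had 89.0, 125 and 80.3 CPM against 242 and 214 CPM (edgeR log2 fold change -1.26 with SE 0.27, adjusted p = 0.00399). Uqcr10 had 35.6, 53.5 and 55.2 CPM against 112 and 108 CPM (log2 fold change -1.15). All SMN libraries lay below both polysome libraries for these 3. Ndufb3 had 53.4, 160.5 and 65.3 CPM against 178 and 167 CPM (log2 fold change -0.97), with replicate 2 close to the polysome level. Cox7b had 97.9, 71.3 and 95.4 CPM against 164 and 162 CPM (log2 fold change -0.86). Atp5g3 had 169, 187 and 246 CPM against 355 and 329 CPM (log2 fold change -0.73), and Uqcrq 107, 143 and 80.3 CPM against 166 and 178 CPM (log2 fold change -0.73). The ranges of these last 4 genes did not overlap either.

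**Figure D4:**
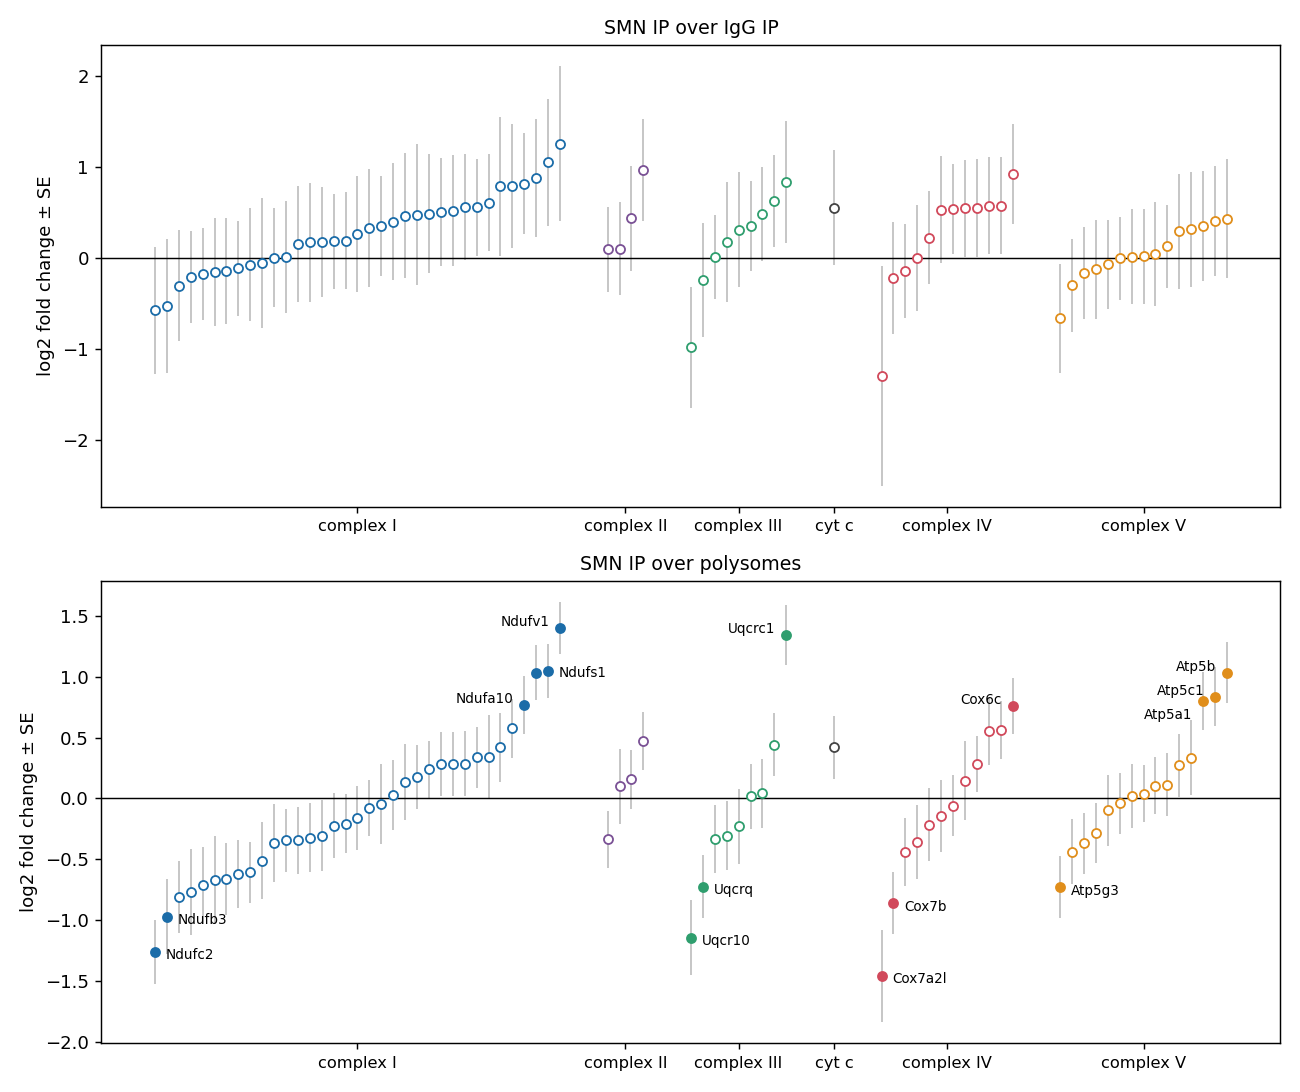
Log2 fold change with its standard error for the 76 members tested, ordered within each complex, for SMN IP over IgG IP (upper panel) and SMN IP over polysomes (lower panel), filled where called. No member is filled above, and 9 higher and 7 lower members are filled below, where labels name the genes given in the text.

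The count depended on single libraries. Without SMN IP replicate 2 the test called 12 of 79 members higher and 19 lower, where 16.0% and 14.5% of all genes were called. Without replicate 1 it called 4 and 1 of 79 (4.04% and 1.41% of all genes), without replicate 3 it called 3 and 0 of 79 (3.47% and 0.840%), and without polysome replicate 1 or 2 it called 0 and 0 (1.66% and 1.72% of all genes higher). Markers of cycling progenitors summed to 593, 743 and 366 CPM in SMN IP and 397 CPM in IgG, against 286 and 304 CPM in polysomes, and 3 of 4 tested were called higher. Neuron markers summed to 7104, 7607 and 7609 CPM in SMN IP and 7649 CPM in IgG, against 5238 and 4824 CPM in polysomes, with Tubb3 (log2 fold change 1.25) and Stmn2 (1.10) called higher. The neuron list was divided, however, with 3 of 6 markers positive and a median log2 fold change of 0.034. The microglia marker C1qa was called lower (-1.62), and 1 of the 3 microglia markers tested was positive (median -0.20). The part of these cell types in the members' values was not tested. The 12 higher calls without replicate 2 were the 9 of the full fit with Sdha, Uqcrc2, the partner of Uqcrc1 in the core of complex III, and Cox4i1, a large nuclear subunit of complex IV. The 19 lower calls were the 7 above with Ndufa1, Ndufa2, Ndufa8, Ndufa11, Ndufb6, Ndufb11 and Ndufs4 of complex I, Uqcrfs1, the Rieske iron-sulfur protein of complex III, and Cox5a, Cox6b1, Cox8a and Ndufa4 of complex IV. These last 4 were high in replicate 2 and lower in the other SMN libraries. Cox8a had 187, 428 and 201 CPM in SMN IP against 311 and 304 CPM in polysomes. Cox6b1 had 214, 455 and 216 CPM against 328 and 307 CPM. Ndufa4 had 214, 348 and 181 CPM against 348 and 305 CPM, and Cox5a 222, 464 and 201 CPM against 390.0 and 348 CPM. For Cox8a, Cox6b1 and Cox5a replicate 2 lay above both polysome libraries, while replicates 1 and 3 lay below them.

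The IgG library, set against the same polysomes, gave its own values for these genes, with no test. IgG over polysomes was 1.40 for Ndufv1, 1.18 for Uqcrc1, 1.04 for Ndufs1, 0.76 for Atp5b and 0.66 for Atp5a1 on the log2 scale. It was -2.36 for Ndufc2, -1.81 for Ndufb3, -1.11 for Uqcrq and -0.31 for Cox7a2l. Both ratios share the polysome libraries. Set directly against IgG, the log2 fold change was -0.21 (SE 0.50) for Ndufv1 and 0.12 (SE 0.46) for Atp5b.

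The values of the members were ordered by the length of the coding part and by how many transcripts the table lists for the gene. In SMN IP over polysomes, the 18 members of up to 300 bases had a median log2 fold change of -0.22, the 37 above that and up to 600 bases -0.22, the 12 of up to 1200 bases 0.13 and the 9 longer ones 1.03, of which 6 were called higher. Over all genes tested the same classes had -0.61, -0.34, -0.31 and 0.18, and 21.8% of the longest class were called higher. Of the members of up to 300 bases 3 of 18 were called lower, against 35.9% of all genes in that class. In the next class, of up to 600 bases, 4 of 37 members were called lower, against 20.6% of all genes. Short members were thus called lower less often than short genes in general, a difference that was not tested. By listed transcripts, members with 1 had -0.22, with 2 to 3 -0.32, with 4 to 6 -0.043 and with more than 6 0.56, where 7 of 15 were called higher. All genes showed -0.44, -0.17, 0.13 and 0.68, and 39.1% of those with more than 6 transcripts were called higher. Spearman's rho over the 76 members was 0.45 with length and 0.51 with transcript number, and over all 6484 genes 0.42 and 0.52, as a description in genes that share the same libraries. IgG over polysomes had rho of 0.39 and 0.66 over the members. By library, the 15 members with more than 6 transcripts had median log2 ratios to polysomes of 0.69, -0.085 and 0.69 in SMN IP replicates 1 to 3 and 0.37 in IgG, so SMN IP replicate 2 did not share the order.

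When the fit was limited to genes with 1 listed transcript, a setting added once these data had been seen, 2 of 20 members tested were called higher and none lower, where 14.4% and 9.56% of such genes were called. They were Ndufa13, an accessory subunit of complex I (log2 fold change 0.72, SE 0.16), and Ndufb9 (0.64, SE 0.16). For RiboLace over polysomes the same limit left 2 of 22 called higher, where 3.10% of such genes were, Cox8a (1.20, SE 0.25) and Atp5l (1.34, SE 0.36). The part of transcript number and length in the calls of the full fit was not tested.

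**Figure D5:**
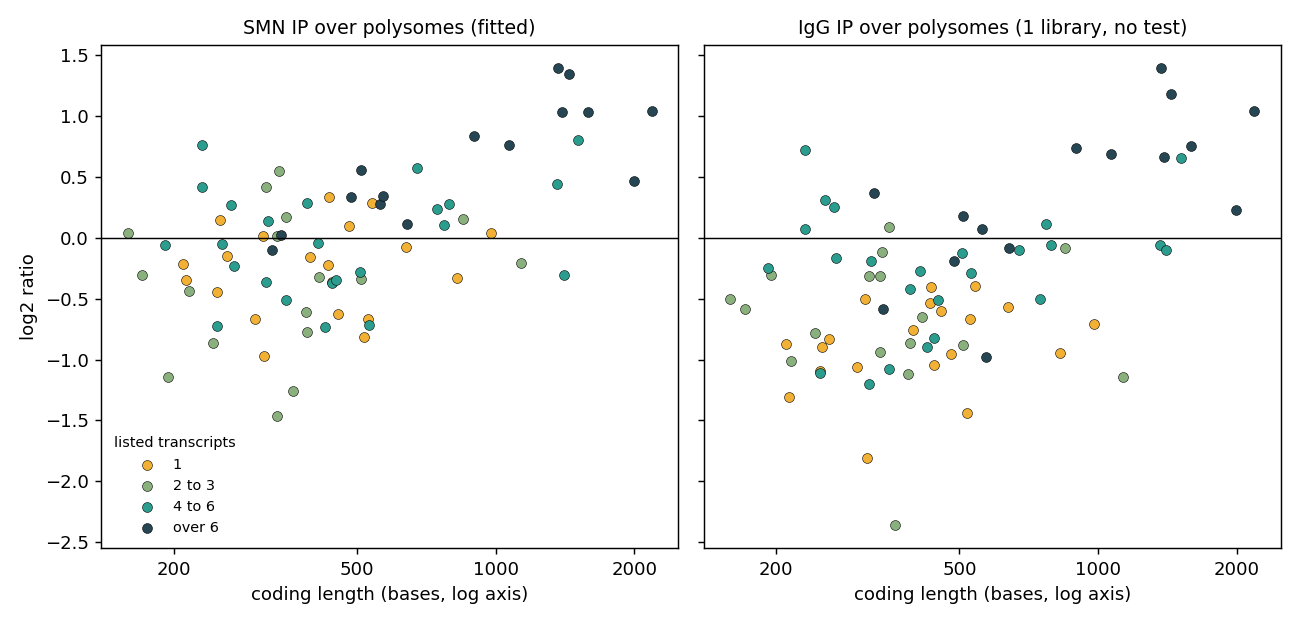
Log2 ratio to polysomes against coding length in bases (log axis) for the 76 members tested, with SMN IP left and the single IgG IP library right. Colours give the number of transcripts listed for the gene. Long genes with more than 6 listed transcripts lie highest in both panels.

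Within complex I the 7 nuclear core subunits, conserved from bacteria and holding the redox centres, had a median log2 fold change of 0.58 in SMN IP over polysomes (6 of 7 positive). The 28 accessory subunits had -0.31 (9 of 28 positive). This split was made after the values were seen and has no test. The core genes are longer (median 792 against 405 coding bases) and have more listed transcripts (6 against 2). In IgG over polysomes their median was -0.061, against -0.62 for the accessory genes, and in SMN IP over IgG the medians were 0.18 and 0.30.

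Complex II and cytochrome c held no call by edgeR in any of the 3 comparisons with all replicates and TMM factors, while Sdha in SMN IP over polysomes was called by DESeq2 and without SMN IP replicate 2, and Sdhc with library totals. In SMN IP over polysomes, Sdha had 596, 481 and 492 CPM against 387 and 365 CPM (edgeR log2 fold change 0.47 with SE 0.24, adjusted p = 0.147), with no overlap between the groups. Sdhb, Sdhc and Sdhd had log2 fold changes of 0.16, -0.34 and 0.10. Cycs, the soluble electron carrier between complexes III and IV, had 116, 80.2 and 151 CPM in SMN IP against 87.1 and 95.1 CPM in polysomes, and 129.8 and 149.6 CPM in RiboLace against 90.8 and 97.8 CPM. Its log2 fold changes were 0.42 (SE 0.26) and 0.55 (SE 0.45).

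The partner subunits made inside mitochondria were read in all libraries and took another course. All 13 fell in SMN IP against polysomes, with a median log2 fold change of -1.72, where 11.1% of all genes were called lower. The largest differences were those of mt-Nd2 (-3.61, SE 0.36) and mt-Cytb (-3.05, SE 0.30). Summed, the 13 genes held 1707, 1786 and 1518 CPM in SMN IP and 3000 CPM in IgG, against 8737 and 8659 CPM in polysomes. The IP lysates had been cleared of mitochondria, as the labels state, and the part of that step in these values was not tested. Against IgG the median of 11 tested genes was -1.13, with none called. In RiboLace 1 of 13 rose against polysomes, mt-Co1 of complex IV (0.60, SE 0.15). The 3 nuclear subunits or factors read that the symbol rule missed, Ndufab1, Usmg5 and Atpif1, were tested in each comparison and not called.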

How the data were processed

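The authors deposited 1 table of read counts per transcript for all 8 libraries, with the lengths of the untranslated and coding parts. The submitters' processing notes name the build GRCm38.p4, SAMtools, Bowtie2 2.2.6 and Trimmomatic 0.36, and no source used here gives the rule for reads that match several transcripts. The counts were tested as deposited, on the protein-coding transcript with most reads per gene, by the robust quasi-likelihood test of edgeR 4.0.16 (R 4.3.3; TMM factors, filterByExpr with a minimum count of 10) over all genes, each fit holding the 2 groups compared. Benjamini-Hochberg adjusted p under 0.05 was the call, and SE is the log2 fold change over the root of F. On simulated data the test missed most changes in SMN IP against IgG and in RiboLace against polysomes. CPM in a comparison uses TMM factors; sums of marker lists and densities use coding reads without them. IgG over polysomes, with 1 library, is a log2 ratio of values only. Alternatives were DESeq2 1.42.0, library totals, other filters, summed counts, a replicate block and left-out replicates. The genes named with values are those called, the 3 largest fold changes each way, the densest 2 of a complex, the isoform sets, complex II and Cycs; others (Atp5h, Cox5a, Uqcrc2, those called without SMN IP replicate 2) were chosen after their values were seen. Some called genes are not reported here by name. Members and lists were chosen with earlier results of these data known. P-values measure the spread between these libraries.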

Additional observations from a re-analysis of the deposited data

Results flagged for a closer look

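Several rows outside the comparisons, annotated as processed pseudogenes of ATP synthase subunit genes, held reads. Over both polysome libraries Atp5l2-ps held 379 reads, Atp5l-ps1 held 191, Atp5k-ps2 held 143 and Atp5l-ps2 held 73. In CPM, Atp5l2-ps had 79.6, 52.5 and 84.1 in SMN IP, 58.1 in IgG, 125 and 102 in RiboLace and 103 and 90.6 in polysomes. Whether these reads were shared with Atp5l and Atp5k, whose sequences the pseudogenes resemble, was not tested.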

How the results depend on the processing

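No paired analysis was possible because the SMN and IgG libraries share only 1 replicate number. For the other comparisons the deviations of same-numbered libraries had correlations of 0.00827 for RiboLace, and -0.00129 and 0.0315 for SMN IP. With 2 polysome libraries, and a RiboLace pair that differed by a chi-square of only 1.05 per gene, such values cannot show whether same-numbered libraries are paired. With the replicate number as a block 0 members were called higher in RiboLace against polysomes (0.537% of all genes). In SMN IP against polysomes 1 was called higher and 0 lower (4.30% and 1.42% of all genes). In SMN IP against IgG 0 members were called under each alternative, which says nothing of stability in a design that calls almost no gene. The median of 0.24 moved to 0.46 with a minimum count of 50, where only 17 members were tested. It ran between 0.18 and 0.26 with a replicate left out. In RiboLace against polysomes the 3 higher calls became 1 of 84 members with no filter (0.770% of all genes) and 7 of 74 with a minimum count of 50 (5.24%). They became 0 of 76 with all 8 libraries in 1 fit (0.989%) and 5 of 80 with counts summed per gene (2.06%). The members' median of 0.12 in that comparison became 0.19 with DESeq2, -0.034 with no filter and 0.36 with the minimum count of 50. It was 0.26 with all 8 libraries and 0.22 with summed counts, and ran between -0.038 and 0.39 with a replicate left out. In SMN IP against polysomes the 9 higher and 7 lower calls became 5 and 17 of 76 members with library totals (9.81% and 24.3% of all genes). They became 5 and 13 of 84 with no filter (5.25% and 7.03%) and 2 and 3 of 27 with the minimum count of 50 (15.9% and 13.6%). With summed counts they were 3 and 4 of 77 (7.62% and 4.85%). In genes with 1 listed transcript, an alternative chosen after the data were seen, they were 2 and 0 of 20 (14.4% and 9.56%). With a replicate left out they ran between 0 and 12 higher and between 0 and 19 lower. The median of -0.043 became -0.33 with library totals, -0.29 with no filter and 0.14 in genes with 1 listed transcript. Ndufv3 in RiboLace against polysomes turned to 0.077 with summed counts, and for these shifts the cause was not tested. Of single genes, 67 values for RiboLace, 48 for SMN IP against IgG and 89 for SMN IP against polysomes kept direction and call, while 14, 0 and 95 lost the call in the same direction. With counts summed per gene the polysome density of Cox8a was 889, against 1458, and that of Atp5b 333, against 546. Both genes have 1 coding transcript, so their own counts did not change. The lower densities come from dividing by the larger total of summed coding reads. Depth limits the RiboLace and IP values most, since 3 reads there make 12.6 to 76.2 CPM.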

Other observations

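Genes around the respiratory chain, from lists that were drawn up with earlier results known, were read in the same libraries. Of 49 factors that assemble the complexes or act in the expression of their mitochondrial genes, 48 were in the table. In SMN IP against polysomes 3 of 18 tested rose (Atpaf1, Lrpprc and Ecsit) and 2 fell (Cox14 and Pet100), with a median log2 fold change of -0.67; of all genes 16.4% were called higher and 11.1% lower, close to the share in this list. None of 42 changed in RiboLace against polysomes, and none of 7 in SMN IP against IgG, by edgeR. A further list held 18 enzymes of the tricarboxylic acid cycle or of steps leading into it. The cycle feeds the chain with NADH and succinate. Of 17 tested, 4 rose in SMN IP against polysomes, where 16.4% of all genes did. Among the 4 were Ogdh (1.26), Mdh2 (0.72) and Pcx (1.05), the last an enzyme of a step into the cycle. In RiboLace against polysomes Dlst alone was called, lower by a log2 fold change of -1.72, and the median of the 18 was -0.36.

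Regulators of mitochondrial biogenesis were sparse. Of 12, only 2 passed the filter in SMN IP against polysomes, Pprc1 (1.68, called higher) and Yy1 (-1.12, called lower). In RiboLace against polysomes 9 were tested and none was called.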
